A study of Oryza sativa with 6 samples.

Results

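The endoplasmic reticulum is where plant cells fold secreted and membrane proteins, and 9 rice loci of its folding and stress machinery were compared between wild-type (WT) leaves and leaves of the autophagy mutant osatg5-1. The loci were chosen by ID: BiP1 (LOC_Os02g02410), GRP94 (LOC_Os06g50300), calnexin (LOC_Os04g32950), 2 calreticulins (LOC_Os07g14270 and LOC_Os03g61670), PDIL1-1 (LOC_Os11g09280), PDIL2-3 (LOC_Os09g27830), IRE1 (LOC_Os07g28820) and bZIP50 (LOC_Os06g41770). They are 9 of the 57839 loci in the deposited tables and lie on 7 chromosomes by their locus numbers. All 9 were among the 23074 loci with enough counts to be tested. The names came with the choice of loci, because the deposited tables hold IDs alone. A RefSeq gene table (assembly ASM3414082v1) holds 5 of the names, those of BiP1, PDIL1-1, PDIL2-3, IRE1 and bZIP50, each on the chromosome that the locus number gives.

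The series asked how autophagy bears on flowering time in rice. It holds poly(A) RNA of mature Oryza sativa leaves from 2 genotypes, with 3 libraries each, taken while field-grown plants were tillering in long days. ATG5 is a core protein of autophagy, which carries cell material to the vacuole. The labels name no cultivar, do not describe the lesion of osatg5-1 or a second allele, and do not say whether a library is 1 plant or a pool. The p-values therefore describe library-to-library spread alone, and that spread may be technical. Library totals ran from 30927816 to 39351357 counts. The counts of ATG5 and of marker genes of other cell types could not be read, because no table used here pairs their names with locus IDs.

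New proteins that enter the endoplasmic reticulum are bound by BiP, an HSP70 chaperone, and by GRP94, its HSP90 partner. Calnexin and calreticulin are lectin chaperones that hold glycoproteins until they are folded, and protein disulfide isomerases such as the PDIL proteins form and rearrange disulfide bonds. When unfolded proteins build up, the membrane sensor IRE1 cuts bZIP50 mRNA, and the factor made from the spliced mRNA switches on chaperone genes. Autophagy can also take up pieces of endoplasmic reticulum. Counts per locus do not separate spliced from unspliced bZIP50 mRNA.

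Transcripts of every folding locus in the set fell in osatg5-1, and those of IRE1 and bZIP50 were not called in either direction. Of the 9 loci, 7 were called lower and 0 higher (edgeR quasi-likelihood test, adjusted p under 0.05 over all tested loci, n = 3 libraries per genotype). Over all 23074 tested loci, 8.21% were called lower and 8.23% higher. The 7 lower loci are BiP1, GRP94, calnexin, both calreticulins, PDIL1-1 and PDIL2-3. The median log2 fold change was -0.48 over all 9 loci, which is 28.3% lower, against a median of 0.00 over all tested loci. Over the 7 called lower it was -0.57, or 32.5% lower, and its sign there follows from the calls. In RNA of whole leaves, fewer cells of a type and less RNA per cell cannot be told apart. At an unadjusted p under 0.05, 1 locus of the set (bZIP50) was higher, as were 15.3% of all tested loci, and DESeq2 and limma-voom called 0 higher. Called falls were more frequent among well-read loci, at 10.6% of tested loci with 10 CPM or more (counts scaled to library size, with TMM factors) and 11.1% of those that were also at least 2000 bases long. The loci were not drawn at random, and they were chosen with earlier results of these data known. These shares therefore serve as a backdrop, and no test of the set was made.

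**Figure D1:**
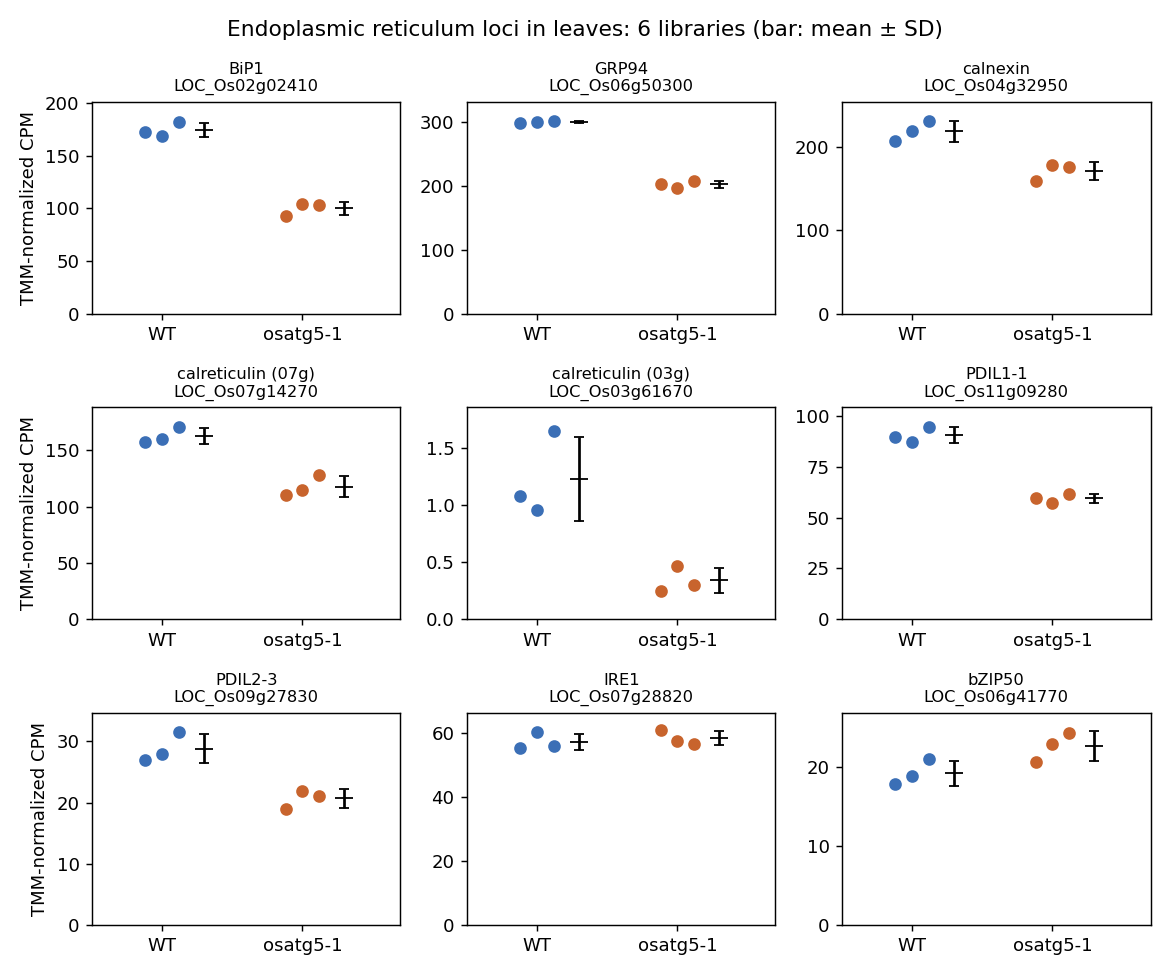
TMM-normalized CPM (y axis, from 0) of each locus in the 3 WT and 3 osatg5-1 libraries (points), with mean ± SD beside them. The genotypes do not overlap at 7 of the 9 loci, and they overlap at IRE1 and bZIP50.

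BiP1, the main HSP70 chaperone of the compartment, stood at 173, 169 and 182 CPM in WT and at 93.2, 104 and 103 CPM in osatg5-1. The highest mutant library thus lay well under the lowest WT library. Its level went from 175 ± 6.62 to 99.9 ± 5.79 CPM (SD, n = 3 each), a log2 fold change of -0.81 ± 0.07 (SE; 95% interval -0.96 to -0.65; edgeR adjusted p = 6.06e-05). This 42.8% fall was the only one of the 7 that also passed a test against a null of up to 1.5-fold (edgeR, adjusted p = 0.034). Among tested loci of 10 CPM or more, 1.76% fell by as much or more.

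GRP94, the HSP90 of the endoplasmic reticulum, was at 298, 300 and 301 CPM in WT and at 202, 197 and 207 CPM in osatg5-1. It had the narrowest relative spread among WT libraries of all 9 loci. The log2 fold change was -0.57 ± 0.06 (SE; edgeR adjusted p = 1.82e-04), or 32.5% lower. The ratio of BiP1 to GRP94 compares the 2 chaperones inside a library and so does not depend on library scaling. Per length (FPKM) it was 0.651 to 0.698 in WT and 0.532 to 0.606 in osatg5-1. The ranges did not overlap, and BiP1 was relatively lower in each mutant library, by 0.24 on the log2 scale (exact permutation test, two-sided p = 0.1, the smallest that 3 against 3 libraries allow; adjusted over 5 ratios 0.250).

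Calnexin, the membrane-bound lectin chaperone, showed the smallest fall of the 7. It was at 207, 219 and 232 CPM in WT and at 159, 179 and 176 CPM in osatg5-1. The groups did not overlap, and the log2 fold change was -0.35 ± 0.07 (SE; 95% interval -0.52 to -0.19; edgeR adjusted p = 0.00891), or 21.7% lower. This interval does not reach that of BiP1; the difference between these loci was not tested.

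The soluble lectin chaperone calreticulin is represented by loci of very different abundance. LOC_Os07g14270 was at 157, 160 and 171 CPM in WT and at 110, 115 and 128 CPM in osatg5-1, so that every mutant library lay below every WT library. Its log2 fold change was -0.47 ± 0.07 (SE; edgeR adjusted p = 0.00209). LOC_Os03g61670 held only 34, 30 and 50 counts in the WT libraries and 8, 17 and 12 in the mutant libraries. Its CPM went from 1.23 ± 0.369 to 0.339 ± 0.112 (SD, n = 3 each), a log2 fold change of -1.84 ± 0.40 (SE; 95% interval -2.72 to -0.96; edgeR adjusted p = 0.0107). This was the largest fold difference of the set, on the fewest counts and with the widest interval. In FPKM the ratio of the rare to the abundant calreticulin was 0.00538 to 0.00890 in WT and 0.00196 to 0.00356 in osatg5-1, again without overlap (exact permutation test, two-sided p = 0.1, the smallest possible; adjusted over 5 ratios 0.250). Calnexin relative to the summed calreticulins was 1.12 to 1.18 in WT and 1.18 to 1.35 in osatg5-1, and here the exact test gave p = 0.200 (two-sided; adjusted over 5 ratios 0.250).

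Both disulfide isomerases fell. PDIL1-1 was at 90.0, 87.4 and 94.8 CPM in WT and at 59.8, 57.1 and 61.8 CPM in osatg5-1. This was 34.3% lower, with a log2 fold change of -0.61 ± 0.07 (SE; edgeR adjusted p = 2.64e-04). PDIL2-3 was at 27.0, 28.0 and 31.5 CPM in WT and at 19.0, 21.9 and 21.1 CPM in osatg5-1. This was 28.3% lower, with a log2 fold change of -0.48 ± 0.09 (SE; edgeR adjusted p = 0.00561). At both loci every mutant library lay below every WT library. The FPKM ratio of PDIL1-1 to PDIL2-3 was 2.67 to 2.99 in WT and 2.33 to 2.80 in osatg5-1, and the ranges overlapped (exact permutation test, two-sided p = 0.300; adjusted over 5 ratios 0.300).

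The stress-signalling loci were not called. IRE1 was at 55.4, 60.2 and 56.1 CPM in WT and at 61.1, 57.6 and 56.7 CPM in osatg5-1, so that the genotypes were interleaved. Its log2 fold change was 0.03 ± 0.07 (SE; edgeR adjusted p = 0.807), with a 95% interval from -0.12 to 0.18 that holds none of the values fitted for the 7 folding loci. The transcription factor bZIP50 was at 17.8, 18.8 and 20.9 CPM in WT and at 20.6, 22.9 and 24.3 CPM in osatg5-1, where the lowest mutant library fell just under the highest WT library. Its log2 fold change was 0.24 ± 0.10 (SE; 95% interval 0.03 to 0.46), with an unadjusted p of 0.0318 and an edgeR adjusted p of 0.122. The FPKM ratio of IRE1 to bZIP50 was 1.26 to 1.5 in WT and 1.09 to 1.39 in osatg5-1, with overlap (exact permutation test, two-sided p = 0.200; adjusted over 5 ratios 0.250).

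**Figure D2:**
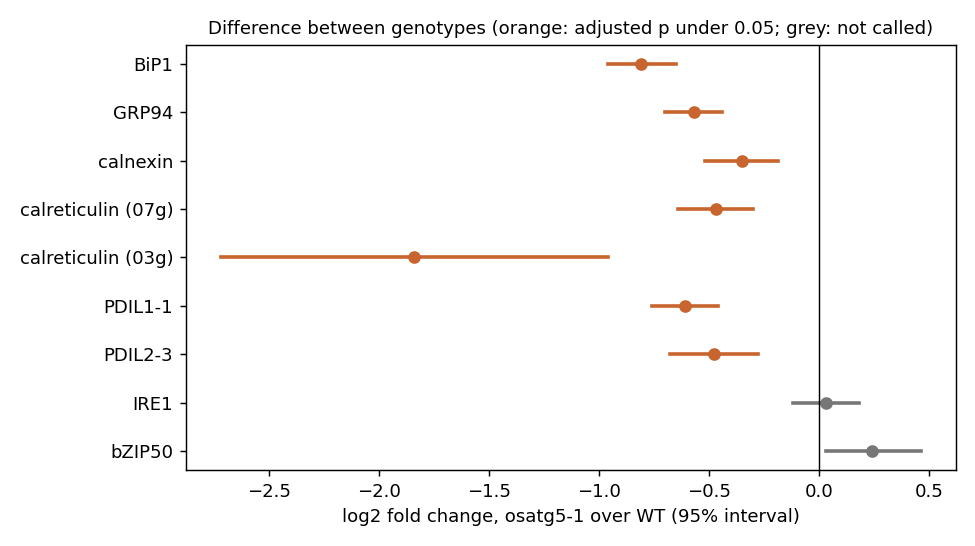
log2 fold change of osatg5-1 over WT (x axis) with its 95% interval for each of the 9 loci (edgeR, 3 libraries per genotype). The 7 folding loci lie between -1.84 and -0.35, and IRE1 (0.03) and bZIP50 (0.24) lie to the right of 0.

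The absence of overlap can be read against all loci in the same way. All 3 mutant libraries were below all 3 WT libraries at 7 of the 9 loci and at 17.8% of the tested loci. Within a genotype the loci moved partly together, so that they are not independent of each other. In CPM, WT replicate 3 was the highest WT library at all 7 folding loci, against 37.8% of tested loci. At GRP94 this rested on 301 against 300 CPM in WT replicate 2. In FPKM, WT replicate 2 was the higher of these there, at 91.6 against 90.8. By CPM, osatg5-1 replicate 1 was the lowest mutant library at 5 of the 7, against 34.4% of tested loci. With WT replicate 3 left out, the 7 loci were still called lower, and likewise with osatg5-1 replicate 1 left out. Over all tested loci, 1672 of 23616 were called lower without WT replicate 3, and 1361 of 23566 without osatg5-1 replicate 1. The total of osatg5-1 replicate 1, 31296258 counts, lay among those of the WT libraries, and the other mutant libraries, at 36280885 and 39351357 counts, were deeper.

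Compared per length, 5 of the 7 folding loci were above IRE1 and bZIP50 in every library, and PDIL2-3 and the rare calreticulin were not. In WT, GRP94 was at 91.1 ± 0.504 FPKM and calnexin at 88.5 ± 4.89 FPKM (SD, n = 3 each), and the order of these 2 differed between libraries. The abundant calreticulin followed at 75.9 ± 2.28 FPKM, then BiP1 at 61.3 ± 1.92 FPKM and PDIL1-1 at 40.0 ± 1.41 FPKM, with no overlap between these neighbours. IRE1, at 15.7 ± 0.771 FPKM, and PDIL2-3, at 14.3 ± 1.15 FPKM, changed places between WT libraries. bZIP50 was at 11.3 ± 0.843 FPKM, and the rare calreticulin was lowest at 0.521 ± 0.156 FPKM.

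In osatg5-1 calnexin was first in each library at 71.9 ± 4.39 FPKM (SD, n = 3), ahead of GRP94 at 63.6 ± 1.34 FPKM. The abundant calreticulin, at 56.8 ± 5.18 FPKM, came next, and its highest library stayed under that library's GRP94 value. BiP1 was at 36.3 ± 2.07 FPKM and PDIL1-1 at 27.2 ± 1.04 FPKM. PDIL2-3, at 10.6 ± 0.733 FPKM, ranked below bZIP50, at 13.8 ± 1.12 FPKM, in each mutant library, whereas it ranked above bZIP50 in each WT library. Among all 57839 loci BiP1 ranked 1272 by mean FPKM in WT and 2428 in osatg5-1, and IRE1 ranked 5587 and 5524.

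Summed over the 7 folding loci, FPKM was 363, 369 and 384 in the WT libraries and 254, 268 and 277 in the osatg5-1 libraries. This sum took 0.0671% of all FPKM on average in WT and 0.0485% in osatg5-1, a ratio of 0.722. Set against IRE1 in the same library, which takes library scaling out, the sum was 23.7, 22.1 and 25.1 times the IRE1 level in WT and 14.6, 16.3 and 17.2 times in the mutant. The lowest WT value thus exceeded the highest mutant value, which restates the falls of the single loci beside a nearly level IRE1. These sums describe the libraries and were not tested.

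**Figure D3:**
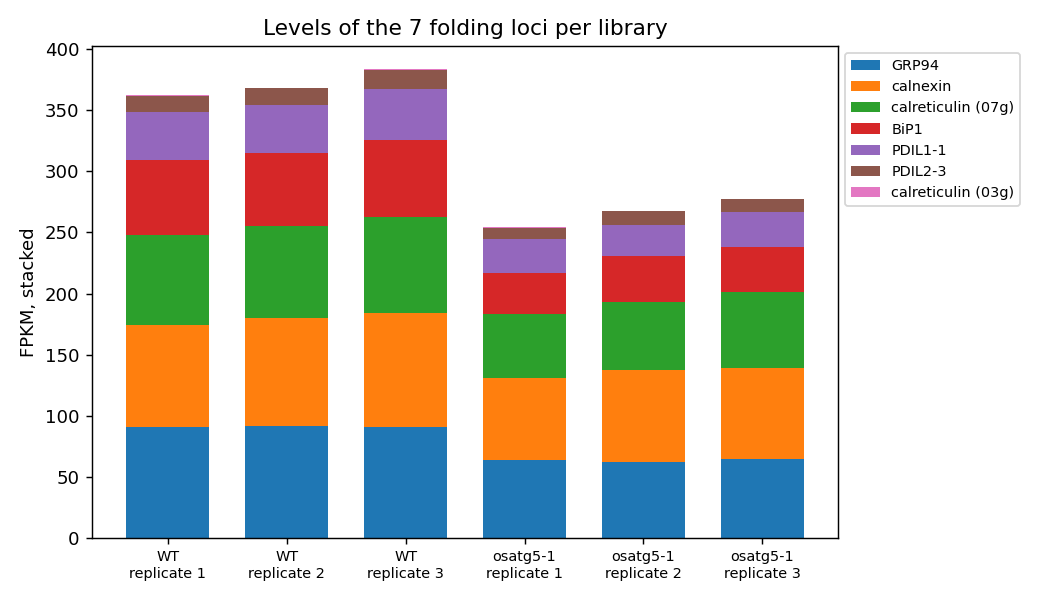
FPKM of the 7 folding loci stacked for each library (y axis, from 0). The stacks reach 363 to 384 in WT and 254 to 277 in osatg5-1; the rare calreticulin is too low to be seen.

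**Figure D4:**
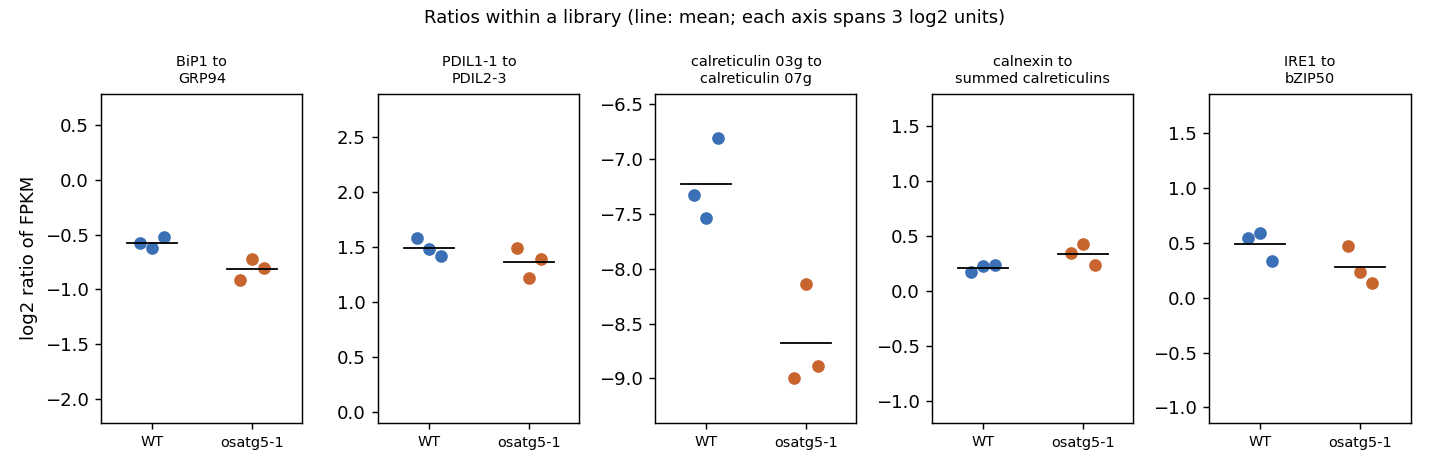
log2 ratio of FPKM between paired loci within each library (points; line, mean), with axes that each span 3 log2 units. The genotypes are apart for BiP1 to GRP94 and for the calreticulin pair, and overlap for the other 3 ratios.

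The profile of BiP1 over the 6 libraries was set beside that of every other tested locus, by the root mean square difference of log2 CPM after each locus was centred on its own mean. Among 23073 loci, PDIL1-1 ranked 144 in likeness to BiP1 and GRP94 ranked 211. PDIL2-3 ranked 473, the abundant calreticulin 486, the rare calreticulin 712 and calnexin 1184, whereas IRE1 ranked 11409 and bZIP50 ranked 16860. Apart from the rare calreticulin, whose differences are shrunk by the 0.5 CPM added before the log, this is the order of their fold changes. The 2 loci nearest to BiP1 lie outside the set and carry no name in the files. LOC_Os12g42876, on chromosome 12, was at 319, 308 and 329 CPM in WT and at 165, 194 and 190 CPM in osatg5-1. LOC_Os08g03350, on chromosome 8, was at 90.8, 87.7 and 95.1 CPM in WT and at 50.2, 55.6 and 57.0 CPM in osatg5-1. Their differences from BiP1 were 0.0273 and 0.0340 on the log2 scale, against 0.119 for PDIL1-1.

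BiP1 lies near the mutated gene. RefSeq places 16 genes between BIP1 and ATG5 on chromosome 2 of its assembly, and the distance in the genome build of the deposited counts was not used here. Of the 10 tested loci on each side of BiP1, 2 were called higher and 2 lower, or 20%, against 16.4% of all tested loci. This share was 20% without WT replicate 3 and 5% to 10% with any other library left out, while that of all tested loci was 14.8% and 10.9% to 12.3%. The locus just before BiP1, LOC_Os02g02400, fell from 245 ± 48.0 to 124 ± 18.4 CPM (SD, n = 3 each), a log2 fold change of -0.98 ± 0.14 (SE; edgeR adjusted p = 0.00138), and kept its call with each library left out. It was singled out after its values were seen. The locus just after BiP1, LOC_Os02g02424, was not called (-0.10 ± 0.07; edgeR adjusted p = 0.421). A linked difference around the mutated gene and the mutation itself cannot be told apart at BiP1 in these libraries. Without BiP1, 6 of the other 8 loci were called lower, beside 8.21% of all tested loci. These 8 lie on 6 chromosomes, none of them chromosome 2, and the cause of their differences was not tested.

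Around the 9 loci together, 15 of the 180 neighbouring loci were called higher and 13 lower, or 15.6%; this share was 12.8% without WT replicate 3 and 6.67% to 8.33% with any other library left out, beside the same all-locus shares. With all 6 libraries, the share by member ran from 5% around LOC_Os03g61670 to 35% around bZIP50. Of the 20 neighbours of bZIP50, 2 were called higher and 5 lower. Around IRE1 the share was 20%, the same as around BiP1. Of the 18 loci directly beside a member, 1 was called, LOC_Os02g02400 (edgeR, adjusted p under 0.05). The strand setting of the counts is not given in the sources used here. Reads shared with overlapping or near-identical loci could be counted at either locus. RefSeq names a further BiP gene, and its likeness to BiP1 in sequence was not checked here.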

How the data were processed

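The authors deposited raw counts per locus for 6 libraries and FPKM values per library, per the file headers. Reads were aligned by HISAT2 to IRGSP-1.0, per the submitters' processing notes. The counting tool, strand setting and annotation release were not given in the sources used here. Loci passing filterByExpr were tested across all 23074 with edgeR 4.0.16 (R 4.3.3), TMM scaling, no covariate besides genotype and adjustment after Benjamini and Hochberg. The SE is the log2 fold change over the square root of F. FPKM served for levels between loci and for ratios, tested by exact permutation (scipy 1.17.1). The likeness to BiP1 used log2(CPM + 0.5). Alternatives were other scalings and filters, DESeq2 1.42.0, limma 3.58.1 (voom, and log2(FPKM + 1) or (FPKM + 0.1)), a replicate block, a 1.5-fold null, adjusted p under 0.01 and each library left out. For neighbours, 5 and 20 loci on each side were also used. Removal of each library's trend over length was added after the data were seen. All 9 loci are named; the 2 loci most like BiP1 were the rule for others. Members and lists were chosen with earlier results of these data known. A list of 30 further pathway symbols could not be used, as 0 are paired with a locus ID in the tables used here, and the same held for markers of other cell types. Sequences of the loci were not used here.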

Additional observations from a re-analysis of the deposited data

How the results depend on the processing

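The fall of BiP1 kept its direction and call under all 17 alternatives, from -0.83 to -0.74 on the log2 scale. Against a null of up to 1.5-fold, a test built to pass larger changes alone, 1 locus instead of 7 was called lower. Over all 23074 tested loci, lower calls went from 1894 to 327 under the same test. That test lost GRP94 (-0.568), calnexin (-0.353), PDIL1-1 (-0.607), PDIL2-3 (-0.480) and the calreticulins LOC_Os07g14270 (-0.470) and LOC_Os03g61670 (-1.840). Otherwise 6 or 7 loci were called lower and 0 higher, including under the length correction added after the data were seen. The 6 came from an adjusted p under 0.01 and from the filter of 1 CPM in 3 libraries, which leaves LOC_Os03g61670 out. That locus went to -0.41 on log2(FPKM + 1), where the added 1 shrinks low values by construction. IRE1 stayed between 0.00 and 0.08 and bZIP50 between 0.19 and 0.31, without a call. With the replicate block 7 loci were called lower; deviations of WT and osatg5-1 libraries with the same number correlated at 0.0281, -0.0267 and 0.0878, so the numbers were not taken as pairs. The differences in ratio between genotypes kept their sign. The share called among neighbours was 5% at an adjusted p under 0.01, for the 9 loci and for BiP1, where that of all tested loci fell from 16.4% to 8.06%. With 5 loci on each side and an adjusted p under 0.05, the share was 13.3% around the 9 loci and 30% around BiP1. With 20 loci on each side it was 15.3% and 20%. With a library left out and 10 loci on each side, it was 6.67% to 12.8% around the 9 loci and 5% to 20% around BiP1. Calls over all tested loci also fell with a library left out, to between 10.9% and 14.8%. At LOC_Os03g61670, with 8 to 50 counts per library, depth limits the precision.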
